A study of Mus musculus with 14 samples.

Results

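Glycolysis, the mTOR pathway and the uptake of glucose, lactate and amino acids were followed at the level of chromatin accessibility through 33 genes. Accessibility was measured by ATAC-seq, in which a transposase cuts open DNA, and the deposited table holds read counts in 240778 windows of 201 bp (end minus start) centred on peak summits. A window was assigned to one of the 33 genes when its centre lay within 50 kb of a start site of that gene and no other protein-coding start site was nearer, with RefSeq start sites in GRCm38, the build of the table. This gave 523 of the 240778 windows, for 32 of the 33 genes. No window was assigned to Pfkl, the liver-type phosphofructokinase. The genes were grouped as glucose and lactate transport (4 genes, 80 windows), glycolytic enzymes (16 genes, 234 windows), regulators of glycolysis (4 genes, 113 windows), mTOR complexes and their switch (6 genes, 55 windows) and amino acid transport (3 genes, 41 windows).

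The labels name the cells Treg and the tissue spleen and lymph nodes. The mice all carried the Foxp3-AID allele and all received 5-ph-IAA, for 3 or 7 days. In this allele an auxin-inducible degron is fused to Foxp3, and a ZsGreen reporter and Cre are expressed from the same locus. One genotype carried ROSA26-TIR1(F74G), the receptor through which 5-ph-IAA marks the fusion protein for degradation (R26TIR1(F74G) mice below), kept silent by a loxP-flanked stop until Cre is made. The other carried ROSA26-WT and served as control (R26WT mice). Each genotype had 4 mice on day 3 and 3 on day 7. The labels of these libraries give neither age, sex, sort gate nor activation state. Degradation acts on the Foxp3 protein, so accessibility does not check the labels, and no window lay within 1 kb of a Foxp3 start site.

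Treg cells take up glucose through Slc2a family transporters and break it down through the enzymes of glycolysis, and lactate leaves or enters through the monocarboxylate transporters Slc16a1 and Slc16a3. The kinase mTOR works in complexes built around Rptor or Rictor, is switched on by the GTPase Rheb and held back by the Tsc1 and Tsc2 proteins, and senses amino acids that enter through the Slc7a5 and Slc3a2 heterodimer and through Slc1a5. Hif1a and Myc encode transcription factors with many targets among the glycolytic genes. In Treg cells mTOR signalling and glycolysis are known for their part in activation and proliferation, and Foxp3 is known to restrain glycolysis.

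Between 5653289 and 20184487 counts were obtained per library. The least deeply sequenced libraries were R26TIR1(F74G) mouse 1 on day 3 and R26WT mouse 3 on day 7 (6348754 counts). The 523 windows held 17462 to 63811 counts per library, or 0.295% to 0.321% of all counts. Values are normalised counts in CPM (reads of a window as a rate of the reads in its library), scaled by TMM factors over all 14 libraries. Since a window has 1 fixed length, CPM values can be set side by side between windows. Each mouse gave 1 library, so p-values measure the spread between mice, technical differences between libraries included. In bulk samples, fewer cells of a type and less accessibility per cell cannot be told apart. Of the Treg and T cell markers, Cd3e (median 11.5 CPM), Cd3d (8.34 CPM), Cd4 (4.31 CPM), Il2ra (12.7 CPM), Ctla4 (14.2 CPM), Ikzf2 (20.9 CPM) and Ikzf4 (3.12 CPM) had a promoter window. No promoter window was present for Ms4a1, Cd79a, Pax5, Blk and Cd22 of B cells, for Lyz2, Csf1r, Adgre1, Cd68, Fcgr1 and S100a8 of myeloid cells, for Ncr1 and Klrb1c of NK cells or for Gata1 and Hba-a1 of erythroid cells. Other markers of these cells did have one, with medians of 6.57 CPM at Cr2, 3.5 CPM at Ebf1, 1.15 CPM at Cd79b and 0.964 CPM at Fcer2a of B cells, 4.47 CPM at Cd14, 4.05 CPM at Spi1, 3.09 CPM at Cebpa and 1.03 CPM at Itgam of myeloid cells, 5.44 CPM at Eomes and 1.9 CPM at Klf1. Several of these were at or above Cd4 and Ikzf4. Cd8b1 of CD8 T cells had 12.5 CPM and Cd8a had 1.34 CPM.

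For each gene the promoter window was the one with the highest mean count within 1 kb of a start site, and 32 genes had one. Sequences are shown for 5 of their promoters, those of Pkm, Aldoc, Pdk1 and Rptor because their windows gave some of the smallest p-values on day 3, and that of Mtor because it was the most accessible of the 32. Each line gives the 250 bases before the start site in RefSeq GRCm38.p6, 5′ to 3′ on the strand of the gene, and capitals mark the core of the hypoxia response element, ACGTG or GCGTG on either strand. The stretches lie at chr9:59656326-59656575 (plus strand) for Pkm, at chr11:78322823-78323072 (plus) for Aldoc, at chr2:71872974-71873223 (plus) for Pdk1, at chr11:119602655-119602904 (plus) for Rptor and at chr4:148448332-148448581 (plus) for Mtor.
Pkm: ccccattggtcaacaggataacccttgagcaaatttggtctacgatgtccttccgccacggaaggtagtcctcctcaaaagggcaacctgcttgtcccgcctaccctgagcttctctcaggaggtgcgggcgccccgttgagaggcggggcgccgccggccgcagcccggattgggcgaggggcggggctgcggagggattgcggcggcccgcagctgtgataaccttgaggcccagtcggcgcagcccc
Aldoc: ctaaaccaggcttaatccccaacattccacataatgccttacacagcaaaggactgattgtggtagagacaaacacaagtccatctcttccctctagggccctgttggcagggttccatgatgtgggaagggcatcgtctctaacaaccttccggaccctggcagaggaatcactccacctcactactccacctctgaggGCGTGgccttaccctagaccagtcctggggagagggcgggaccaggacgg
Pdk1: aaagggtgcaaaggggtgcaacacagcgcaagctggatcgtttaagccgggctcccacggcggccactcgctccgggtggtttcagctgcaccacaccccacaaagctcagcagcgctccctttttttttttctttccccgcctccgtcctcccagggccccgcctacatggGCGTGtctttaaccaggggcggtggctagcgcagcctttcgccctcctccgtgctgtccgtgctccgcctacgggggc
Rptor: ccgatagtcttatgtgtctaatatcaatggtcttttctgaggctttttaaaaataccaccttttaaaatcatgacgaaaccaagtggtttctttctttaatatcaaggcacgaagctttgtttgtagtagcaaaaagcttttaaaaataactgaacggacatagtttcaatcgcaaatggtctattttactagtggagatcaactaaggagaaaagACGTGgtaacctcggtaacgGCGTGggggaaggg
Mtor: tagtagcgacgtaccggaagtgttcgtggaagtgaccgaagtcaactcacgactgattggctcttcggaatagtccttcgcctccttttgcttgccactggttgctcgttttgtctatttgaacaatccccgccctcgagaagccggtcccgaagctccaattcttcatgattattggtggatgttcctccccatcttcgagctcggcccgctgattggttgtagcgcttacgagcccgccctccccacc

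The Rptor stretch was the poorest in G and C of all 28 promoters with a sequence and a promoter window (37.6%), and the 250 bases before the Slc16a3 start held 73.6% G and C. The median of the 28 was 63.4%, beside 60.8% for all 9819 genes with both. No sequence was available for Slc2a3, Myc, Slc7a5 and Slc1a5. The hypoxia core was found in 24 of the 28 promoters (85.7%), and in 58.7% of the 9819 promoters of the same length. Mtor, Pkm, Gpi1 and Tpi1 were the 4 without it. CACGTG, the E-box that Myc family proteins bind and that contains the hypoxia core, was found in Ldha, Slc16a1, Hif1a and Rheb (14.3%, against 8.61% of all). GGGCGG, the GC box, was found in 67.9% (62.3% of all), CCAAT in 35.7% (36.5% of all) and the ETS core CGGAAG in 35.7% (26.4% of all). TGACGTCA, the cAMP response element, was found in Ldha alone of the 28 (3.57%, against 2.86% of all). The forkhead motif TGTTTAC and the TATA box TATAAA were found in none of the 28, and in 2.01% and 5.73% of all promoters. Both strands were searched, and a match describes letters only.

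Chromatin at these promoters was accessible in control mice. Over the 7 R26WT mice, the 32 promoter windows had a median of 24.8 CPM, beside 17.5 CPM for the promoter windows of 12085 genes, and 23 of the 32 lay above that median. Mtor, which encodes the kinase itself, had the most accessible promoter window at 51.2 ± 7.13 CPM (SD, n = 7), followed by Rheb (50.3 ± 4.25), Hif1a (46.3 CPM), Pkm and Hk1 (both 44.1 CPM) and Pdk1 (43.8 CPM). Pkm encodes the last and Hk1 the first enzyme of glycolysis, and Pdk1 encodes a kinase that keeps pyruvate out of the mitochondrial acetyl-CoA pathway. Mtor, Rheb and Hif1a stood above 94.2%, 93.8% and 91.4% of all promoter windows. The least accessible were the windows of Slc16a3 (6.15 ± 1.07 CPM), Aldoc (8.01 CPM), Pfkm (8.95 CPM), Tsc2 (8.97 CPM) and Hk2 (9.53 CPM). Aldoc and Pfkm are forms of their enzymes known mainly from brain and muscle.

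Neighbours in this order mostly did not differ beyond their spread. In 3 of 31 neighbouring pairs the means differed by more than the larger SD, below Slc1a5 (26.4 CPM), below Rptor (14.4 CPM) and below Aldoc, and in none did every R26WT mouse lie above the next gene. Among related genes, Slc2a1, the widely expressed glucose transporter, had 34.0 CPM and Slc2a3 9.89 CPM, in a window that may not be at its main start. Hk2, which is induced in activated cells, had less than Hk1. Ldha (20.9 CPM) and Ldhb (23.2 CPM) lay close together. The pair that forms the large amino acid transporter had 38.0 CPM at Slc7a5 and 17.6 CPM at Slc3a2, with starts placed differently. The Slc7a5 start is the outer gene end, while the Slc3a2 start lies inside its gene span. A window at the outer 5′ end of the Slc3a2 span had 42.6 CPM, so the order of the 2 genes depends on the start used. The coefficient of variation over R26WT mice ran from 6.39% to 22.4%, with a median of 12.2% (12.6% for all promoter windows).

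**Figure D1:**
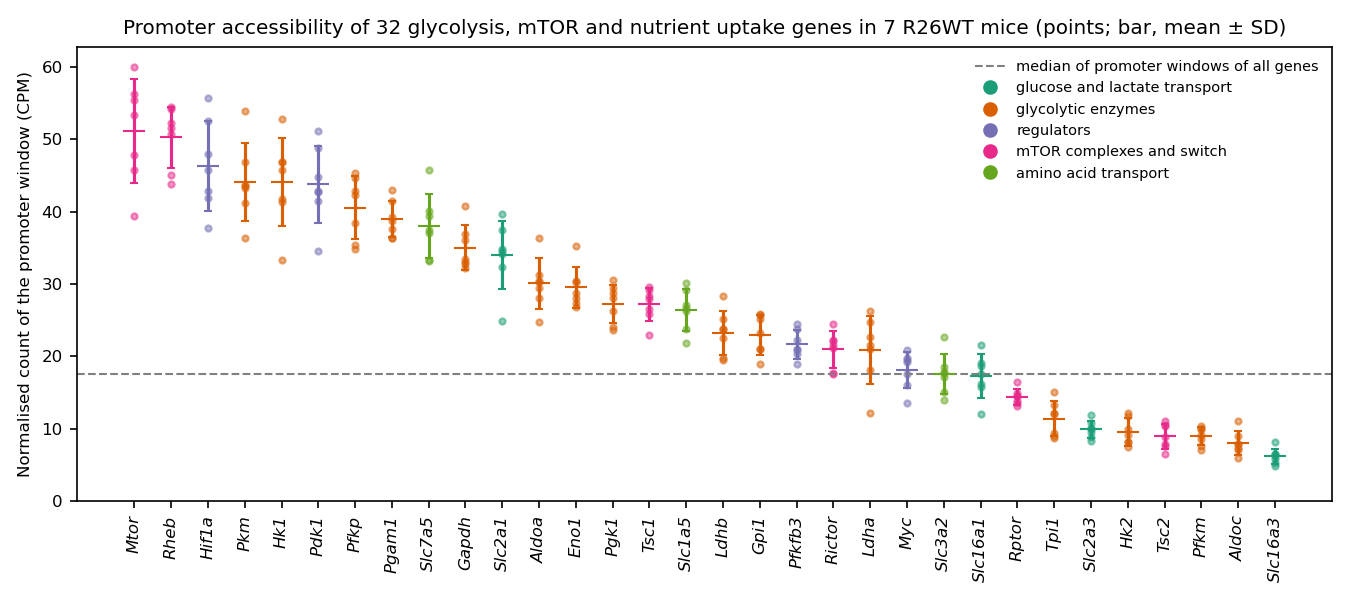
Normalised count (CPM) of the promoter window of each of 32 genes in the 7 R26WT mice, as points for mice and bars for mean ± SD, coloured by role and ordered by mean. Levels run from 51.2 CPM at Mtor to 6.15 CPM at Slc16a3, and 23 windows lie above the dashed line, the median of all promoter windows (17.5 CPM).

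Of the 523 windows, 168 lay within 1 kb of a start site, 165 farther off inside the gene span and 190 outside it. The share within 1 kb was 32.1%, beside 30.8% of the 175294 windows within 50 kb of any start site. Genes had a median of 14 windows, from 1 at Mtor to 44 at Pfkfb3. For 6 of 26 genes with a window beyond 1 kb, the most accessible of these exceeded the promoter window. The most accessible, 8629 bp upstream of Slc2a3, had 65.1 ± 6.29 CPM (SD, n = 7), 658% of its promoter window. Its log2 fold changes between genotypes were −0.13 on day 3 and 0.05 on day 7. The Slc2a3 start was placed at the outer end of a long RefSeq gene span, so the window that stands for its promoter may not be the one at its main start. The others were at Slc3a2 (9408 bp upstream, 42.6 CPM), Gpi1 (3821 bp upstream, 37.2 CPM), Pfkm (3017 bp upstream of its first start site, 12.2 CPM), Hk2 (33980 bp downstream of its start, 11.6 CPM) and Slc16a3 (1917 bp downstream, 6.56 CPM). The Slc3a2 window lies at the outer 5′ end of the RefSeq span of the gene, at chr19:8723205-8723406. The share of a gene's counts that came from within 1 kb of its start sites ran from 15.3% at Slc2a3 to 100% at Mtor, Aldoc, Rptor, Tpi1, Aldoa and Pgam1, with a median of 59.9%.

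For 7 genes RefSeq gave start sites over 1 kb apart, and accessibility was uneven between them. Hk1 had windows at the start at position 62340421 of chromosome 10 (44.1 CPM) and none within 1 kb of the start at 62379908. Pfkm had 2.45 CPM at its first start and 8.95 CPM at the next, 98108471 of chromosome 15. Ldha had 20.9 CPM and 8.08 CPM, Pdk1 43.8 CPM and 4.54 CPM, and Pfkfb3, which makes the allosteric activator of phosphofructokinase, 21.6 CPM and 17.5 CPM. Each window was counted at its nearest start only, and Aldoa and Aldoc each had an additional start with no window counted there. None of the 11 windows at these starts passed an adjusted p of 0.05 on either day.

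On day 3 of Foxp3 degradation, no single window and no summed gene passed the test, and promoter windows of these genes were mostly lower in R26TIR1(F74G) mice. Of the 32 promoter windows, 29 had a log2 fold change (R26TIR1(F74G) over R26WT) below 0, with a median of −0.18, while the promoter windows of all genes had a median of −0.11 and 76.2% of them were below 0. Unadjusted p was under 0.05 for 9 promoter windows, all lower (13% of all promoter windows were called lower at this level): Rptor, Aldoc, Pkm, Slc3a2, Pdk1, Aldoa, Pgam1, Slc7a5 and Tsc2. The 2 genotypes did not overlap at Pkm, Pgam1 and Slc3a2, lower in each case (5.12% of all promoter windows). The smallest adjusted p of the 32 was 0.473, at Rptor. With count-dependent loess offsets in place of TMM the split was 23 lower and 9 higher with a median of −0.04 (all promoter windows −0.01, 52.2% lower), and with scaling to total counts 26 were lower with a median of −0.13 (all −0.06).

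Among all windows of these genes tested on day 3, 30 had an unadjusted p under 0.05, 4 higher and 26 lower, or 5.83%, beside 7.55% of all 235515 windows (3.63% of all windows were lower at this level). Adjusted p was under 0.05 for 0 of their windows by edgeR's quasi-likelihood test and for 0% of all windows, and DESeq2 also called 0 of them. The median log2 fold change was −0.08 for the 168 windows within 1 kb and −0.03 for the 347 windows farther off.

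Of the glycolytic enzymes, 13 of 15 promoter windows had a log2 fold change below 0 on day 3, with a median of −0.17. The Pkm window, 209 bp upstream of the first start, had 46.9, 43.7, 43.5 and 53.9 CPM in R26WT mice 1 to 4 and 40.8, 39.7, 33.9 and 34.3 CPM in R26TIR1(F74G) mice 1 to 4. All 4 R26TIR1(F74G) mice lay below all 4 R26WT mice, and the log2 fold change was −0.35 ± 0.11 (SE, unadjusted p = 0.00339, adjusted p = 0.499). On day 7 the same window had 43.3, 41.2 and 36.4 CPM in R26WT and 37.1, 39.3 and 44.2 CPM in R26TIR1(F74G) mice, and the groups overlapped. At Aldoc, one of the aldolases, the day 3 values were 5.97, 7.81, 7.92 and 11.1 CPM in R26WT and 5.75, 5.90, 5.29 and 6.11 CPM in R26TIR1(F74G) mice (−0.52 ± 0.17, unadjusted p = 0.00281). R26WT mouse 4 was the highest there, and R26TIR1(F74G) mouse 4 lay above R26WT mouse 1. At Pgam1, phosphoglycerate mutase, R26WT mice had 39.2, 36.4, 41.4 and 43.0 CPM and R26TIR1(F74G) mice 36.1, 32.1, 30.8 and 35.5 CPM (−0.26 ± 0.11, unadjusted p = 0.0252). The groups did not overlap, with R26WT mouse 2 and R26TIR1(F74G) mouse 1 next to each other.

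The Aldoa promoter window, at the start of the main aldolase gene, had 30.3, 29.4, 28.1 and 36.4 CPM in R26WT and 31.8, 28.3, 18.4 and 24.1 CPM in R26TIR1(F74G) mice on day 3 (−0.29 ± 0.13). R26TIR1(F74G) mouse 1 was in the range of the controls and mouse 3 was the lowest. Gapdh (−0.17 ± 0.12), Eno1 (−0.20 ± 0.12), Hk1 (−0.18 ± 0.11), Pfkm (−0.22 ± 0.15), Ldha (−0.13 ± 0.13), Gpi1 (−0.12 ± 0.13), Tpi1 (−0.08 ± 0.15), Hk2 (−0.04 ± 0.16) and Ldhb (−0.03 ± 0.12) had unadjusted p-values of at least 0.0951. Pfkp, the platelet-type phosphofructokinase, and Pgk1, phosphoglycerate kinase, were the enzymes with a positive log2 fold change, 0.11 ± 0.12 and 0.08 ± 0.12.

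Among the genes of the mTOR complexes and their switch, all 6 promoter windows had a log2 fold change at or below 0 on day 3, with a median of −0.19. The Rptor window, centred 35 bp downstream of the start, just after the sequence shown above, had 14.5, 13.1, 16.4 and 14.9 CPM in R26WT and 14.2, 11.2, 9.39 and 9.57 CPM in R26TIR1(F74G) mice. R26TIR1(F74G) mice 2, 3 and 4 lay below every control and mouse 1 lay among them, with a log2 fold change of −0.44 ± 0.14 (unadjusted p = 0.00242). Rptor encodes the scaffold that brings substrates to mTOR complex 1. Tsc2, whose protein turns Rheb off, had 7.88, 8.86, 10.5 and 10.4 CPM in R26WT and 8.27, 7.73, 6.19 and 8.45 CPM in R26TIR1(F74G) mice (−0.32 ± 0.15, unadjusted p = 0.042). The Mtor window had 45.8, 47.8, 55.5 and 60.0 CPM in R26WT and 50.7, 47.2, 40.3 and 43.0 CPM in R26TIR1(F74G) mice (−0.21 ± 0.11, unadjusted p = 0.0624), so that the groups overlapped. Rheb had −0.17 ± 0.11 and Tsc1 −0.09 ± 0.12. Rictor, the core of the other mTOR complex, had equal means of 21.2 CPM in both genotypes (95% interval of the log2 fold change −0.24 to 0.24).

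Promoter windows of the 3 amino acid transporter genes all had a log2 fold change below 0 on day 3, with a median of −0.26. At Slc3a2, the heavy chain shared by several amino acid transporters, the promoter window had 17.8, 17.1, 18.5 and 22.6 CPM in R26WT and 15.1, 15.9, 14.2 and 14.4 CPM in R26TIR1(F74G) mice (−0.35 ± 0.13, unadjusted p = 0.00754). The window 9408 bp upstream had 39.5, 43.3, 41.9 and 50.0 CPM in R26WT and 35.2, 37.0, 29.7 and 32.8 CPM in R26TIR1(F74G) mice (−0.38 ± 0.11, unadjusted p = 0.00153, adjusted p = 0.462). In both windows every R26TIR1(F74G) mouse lay below every R26WT mouse on day 3, and the upstream window had the smallest day 3 adjusted p of all windows of these genes. On day 7 the upstream window had 41.8, 41.2 and 40.2 CPM in R26WT and 38.4, 35.9 and 39.7 CPM in R26TIR1(F74G) mice. The groups did not overlap on day 7 either, with R26TIR1(F74G) mice lower, as at 6.02% of all windows. The log2 fold change was smaller, −0.11 ± 0.11 (edgeR, unadjusted p = 0.326, adjusted p = 0.935). Slc7a5, the light chain that carries leucine and other large amino acids, had 33.3, 37.0, 40.1 and 45.8 CPM in R26WT and 36.9, 35.8, 27.3 and 31.8 CPM in R26TIR1(F74G) mice on day 3 (−0.26 ± 0.12, unadjusted p = 0.0344). Slc1a5, a glutamine transporter, had −0.13 ± 0.13.

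Regulators had a median of −0.18 on day 3. The Pdk1 promoter window had 42.7, 42.9, 48.8 and 51.1 CPM in R26WT and 43.9, 38.2, 33.3 and 36.2 CPM in R26TIR1(F74G) mice (−0.30 ± 0.11, unadjusted p = 0.00964), with R26TIR1(F74G) mouse 1 again within the controls. Myc had −0.20 ± 0.13, Hif1a −0.16 ± 0.12 and Pfkfb3 −0.07 ± 0.12. A weak Pdk1 window 6779 bp upstream had 3.29, 3.77, 3.35 and 3.30 CPM in R26WT and 2.34, 2.84, 2.16 and 2.57 CPM in R26TIR1(F74G) mice (−0.45 ± 0.21). It was one of 3 windows named for a low log2 fold change with no overlap, 3 being the most that the naming rule allowed. The others were the upstream Slc3a2 window and one 18333 bp downstream of the Slc2a1 start (−0.40 ± 0.17). The promoter windows of Pkm, Pgam1 and Slc3a2 were also lower without overlap, so 3 is not the number of such windows.

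Glucose and lactate transporters had a day 3 median of −0.17 and none of the 4 had an unadjusted p under 0.05. Slc2a1 had 34.5, 34.1, 37.5 and 39.7 CPM in R26WT and 27.9, 37.9, 27.6 and 34.0 CPM in R26TIR1(F74G) mice (−0.19 ± 0.12). Slc16a3 had 4.76, 5.29, 6.49 and 5.72 CPM in R26WT and 5.22, 4.88, 4.25 and 3.46 CPM in R26TIR1(F74G) mice (−0.35 ± 0.18, unadjusted p = 0.0572). Both sets of mice overlapped. Slc16a1 had −0.15 ± 0.13 and Slc2a3 0.09 ± 0.14. Groups did not overlap, with R26TIR1(F74G) mice higher, at 4 windows on day 3 (2% of all windows). The 2 of these that passed the mean count minimum for naming were weak, one 41650 bp upstream of Pfkp (means of 1.84 and 2.61 CPM, log2 fold change 0.53 ± 0.24) and one 738 bp upstream of Pgk1 (2.13 and 3.07 CPM, 0.50 ± 0.23).

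**Figure D2:**
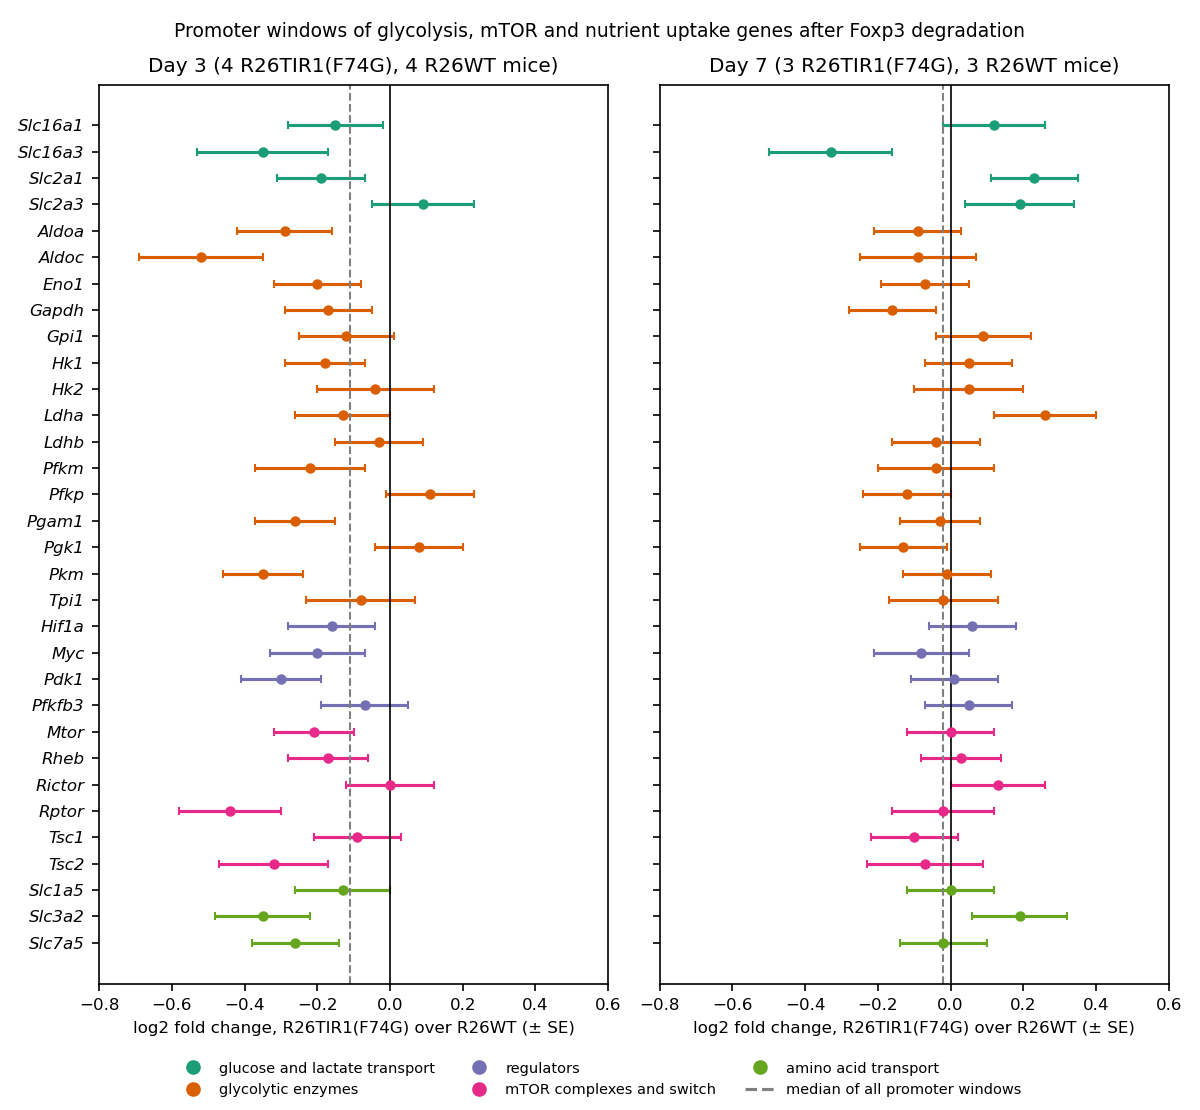
Log2 fold change of the promoter window of 32 genes, R26TIR1(F74G) over R26WT mice, on day 3 (left, 4 mice a genotype) and day 7 (right, 3 mice a genotype); points are estimates, bars ± SE, and the dashed line is the median of all promoter windows. On day 3, 29 points lie below 0 with a median of −0.18, and on day 7, 18 do with a median of −0.02.

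Summing the counts of all non-overlapping windows of a gene gave 1 value a gene with more reads. On day 3, 11 of 32 summed genes had an unadjusted p under 0.05, all lower, or 34.4%, beside 17.4% of all 15664 summed genes (13.8% of all were lower at this level). None of the 32 passed an adjusted p of 0.05 by edgeR or DESeq2, which 0.128% of all did by edgeR. The smallest adjusted p was that of Slc3a2 (0.12), with 115, 114, 122 and 134 CPM in R26WT and 110, 108, 88.2 and 100 CPM in R26TIR1(F74G) mice. All R26TIR1(F74G) mice lay below the controls, and the log2 fold change was −0.26 ± 0.08 (unadjusted p = 0.00249). Rptor followed with −0.34 ± 0.12 (unadjusted p = 0.00682), then Aldoa with −0.30 ± 0.11 (unadjusted p = 0.00706) and Pdk1 with −0.22 ± 0.08. Aldoc, Pgam1, Pkm, Hk1, Mtor, Tsc2 and Slc7a5 made up the rest, between −0.47 and −0.17. Aldoa rests on how 1 library is handled. Its sums on day 3 were 57.0, 58.8, 55.1 and 67.6 CPM in R26WT and 60.1, 52.6, 37.0 and 46.4 CPM in R26TIR1(F74G) mice, and without R26TIR1(F74G) mouse 1, the library with the fewest counts, its log2 fold change was −0.39 ± 0.11 with an adjusted p of 0.0476.

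Leaving out each mouse in turn kept the day 3 median of the 32 promoter windows below 0 and 0.06 to 0.08 below that of all promoter windows. It ran from −0.23 without R26WT mouse 1 or R26TIR1(F74G) mouse 2 to −0.12 without R26TIR1(F74G) mouse 3, and the median of all promoter windows ran from −0.15 to −0.06. The number of promoter windows lower at an unadjusted p under 0.05 went from 14 without R26WT mouse 1 to 3 without R26WT mouse 4, and was 5 without R26TIR1(F74G) mouse 3, 6 without R26WT mouse 3 and 13 without R26TIR1(F74G) mouse 1. Mouse names in the libraries carry the prefix AC or E, and with this prefix as a term in the fit 29 windows were again lower with a median of −0.18.

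**Figure D3:**
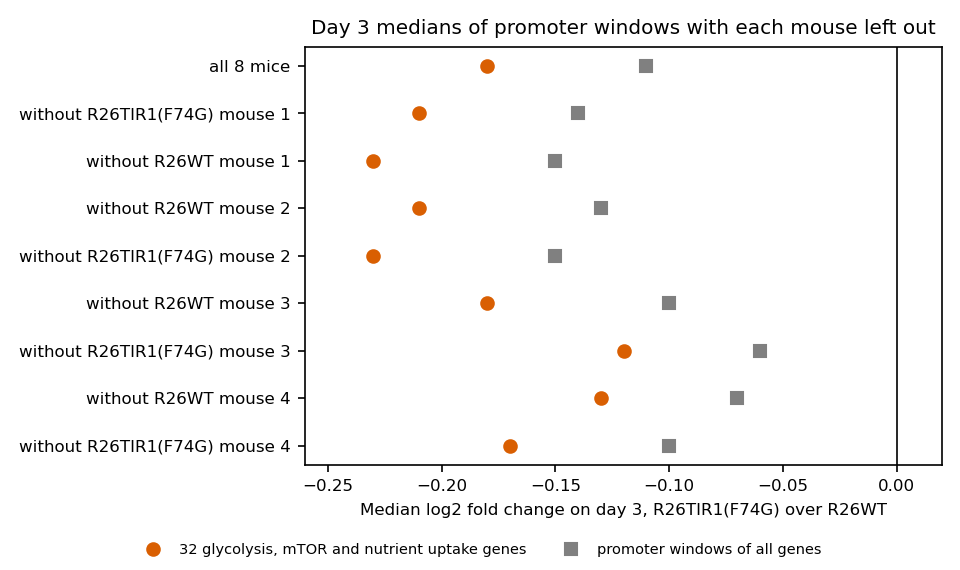
Median day 3 log2 fold change, R26TIR1(F74G) over R26WT, of the 32 promoter windows (circles) and of the promoter windows of all genes (squares), with all 8 mice and with each mouse left out. The circles lie between −0.23 and −0.12 and the squares between −0.15 and −0.06.

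Measures of the whole library moved in the same direction on day 3. Counts within 1 kb of any start site made up 49.9%, 50.4%, 51.6% and 52% of the library in R26WT mice 1 to 4 and 48.9%, 51.4%, 47.5% and 49.3% in R26TIR1(F74G) mice 1 to 4. The sum of the 32 promoter windows was 787, 819, 914 and 972 CPM in the former and 858, 830, 682 and 750 CPM in the latter. R26TIR1(F74G) mouse 3, with the lowest share, had the lowest sum, and R26WT mouse 4, with the highest share, had the highest. Promoter windows of the 7 T and Treg cell markers that had one were lower as well, with a median log2 fold change of −0.29 on day 3. Their sum ran from 77 to 86.9 CPM in R26WT and from 63.4 to 83.3 CPM in R26TIR1(F74G) mice. These are single loci, not a measure of the whole library. They include Il2ra, for which the paper reports reduced expression after Foxp3 degradation. The 4 of 10 B cell markers that had a promoter window (Cd79b, Ebf1, Fcer2a and Cr2) summed to 8.53 to 12.1 CPM in R26WT and 11.7 to 16.2 CPM in R26TIR1(F74G) mice on day 3. On day 7 they summed to 10 to 16 CPM and 8.34 to 14.6 CPM. The part of these measures in the day 3 values of the 32 genes was not tested.

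**Figure D4:**
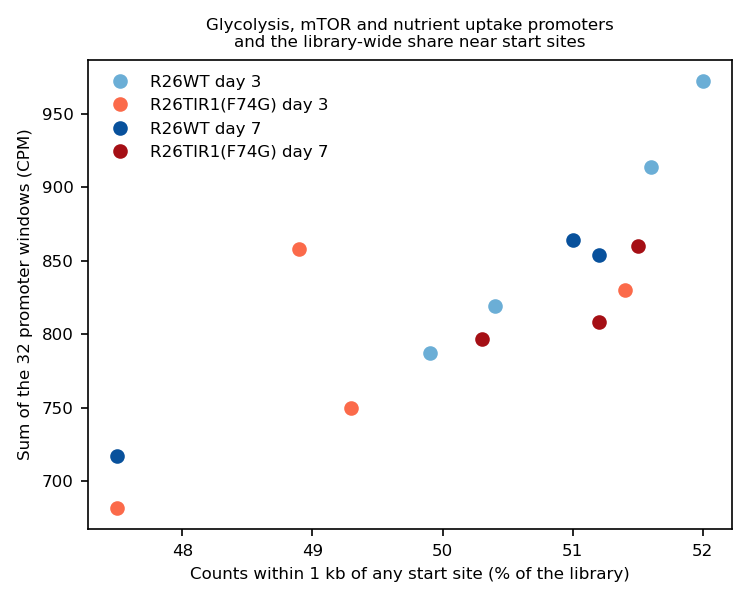
Sum of the 32 promoter windows (CPM) against the share of the library's counts within 1 kb of any start site (%), 1 point a mouse, coloured by genotype and day (14 mice). R26TIR1(F74G) mouse 3 of day 3 lies lowest (682 CPM at 47.5%) and R26WT mouse 4 of day 3 highest (972 CPM at 52%).

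On day 7 of degradation the same promoter windows showed no common direction. Of the 32, 14 were higher and 18 lower in R26TIR1(F74G) mice, with a median log2 fold change of −0.02, equal to that of all promoter windows. None had an unadjusted p under 0.05 (5.15% of all promoter windows did). The lactate exporter gene Slc16a3 was the one with no overlap (6.79% of all promoter windows had none and were lower): R26WT mice had 6.46, 6.22 and 8.10 CPM and R26TIR1(F74G) mice 5.51, 6.14 and 4.55 CPM (−0.33 ± 0.17, unadjusted p = 0.0671). Its 95% interval of −0.66 to 0.01 reached lowest of the 32. The largest positive values were at Ldha (0.26 ± 0.14, 95% interval −0.02 to 0.54) and Slc2a1 (0.23 ± 0.12, −0.01 to 0.48). Without R26WT mouse 3 of day 7, the shallower library, 23 windows were lower with a median of −0.07, and without R26WT mouse 1, 12 were lower with a median of 0.05. R26WT mice 1 to 3 of day 7 had 51%, 51.2% and 47.5% of their counts within 1 kb of a start site, and R26TIR1(F74G) mice 51.2%, 50.3% and 51.5%. The sums of the 32 promoter windows were 864, 854 and 717 CPM in R26WT and 808, 797 and 860 CPM in R26TIR1(F74G) mice. The part of these measures in the day 7 values was not tested.

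Of the windows of these genes tested on day 7, 27 had an unadjusted p under 0.05, 19 higher and 8 lower, or 5.18%, beside 5.96% of all 237811 windows (2.77% of all were higher at this level). Adjusted p was under 0.05 for 0 of them by edgeR and by DESeq2, and for 0.00463% of all windows by edgeR. Of the tested windows of these genes, 61% had a log2 fold change above 0, with a median of 0.07, beside 49% and −0.01 for all windows. Within 1 kb of a start site 68.5% were higher with a median of 0.08 (all 56.4%, 0.03). Farther off 57.5% were higher with a median of 0.06 (all 46.9%, −0.02). Some of these windows overlap one another, so they are not independent. Groups did not overlap, with R26TIR1(F74G) mice higher, at 42 windows, 16 of them within 1 kb of a start site and 26 beyond (5.81% of all windows did so). The 3 named for their log2 fold change were weak. At Rictor, 1116 bp downstream of the start, R26WT mice had 2.39, 1.92 and 1.80 CPM and R26TIR1(F74G) mice 2.94, 3.40 and 3.04 CPM (0.59 ± 0.24, unadjusted p = 0.0179). A second Rictor window at 631 bp had 4.01, 4.65 and 3.30 CPM against 5.19, 6.32 and 5.87 CPM (0.49 ± 0.18). On day 3 this second window had 5.80, 6.68, 6.28 and 7.38 CPM in R26WT mice, all above the day 7 controls (log2 fold change of day 7 over day 3 −0.68, unadjusted p = 0.000432, adjusted p = 0.596). The day 7 R26TIR1(F74G) mice lay between the day 7 controls and the highest of the day 3 controls. At Ldhb, 740 bp downstream, R26WT mice had 3.62, 2.91 and 2.40 CPM and R26TIR1(F74G) mice 4.01, 4.89 and 4.35 CPM (0.52 ± 0.21).

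With R26TIR1(F74G) mice lower, groups did not overlap at 21 windows on day 7 (6.02% of all windows), and the 3 named for their log2 fold change were at Pdk1 and Aldoa. The Pdk1 window 20869 bp upstream had 7.62, 6.86 and 10.2 CPM in R26WT and 5.72, 5.84 and 5.77 CPM in R26TIR1(F74G) mice (−0.46 ± 0.17, unadjusted p = 0.00894). The day 7 controls also stood above the day 3 controls (4.85, 5.75, 5.67 and 5.25 CPM). The Pdk1 window 9535 bp upstream had 7.62, 7.91 and 9.90 CPM against 5.94, 6.38 and 6.88 CPM (−0.37 ± 0.16). The Aldoa window 292 bp upstream had 18.7, 17.2 and 19.3 CPM in R26WT and 14.6, 14.5 and 15.1 CPM in R26TIR1(F74G) mice on day 7 (−0.31 ± 0.13, unadjusted p = 0.0199). On day 3 it had 15.6, 17.7, 15.4 and 18.8 CPM in R26WT and 18.5, 13.5, 9.84 and 11.3 CPM in R26TIR1(F74G) mice (−0.39 ± 0.14). R26TIR1(F74G) mouse 1 overlapped the controls on day 3 and the other R26TIR1(F74G) mice lay below them. Among summed genes, Ldha was the one with an unadjusted p under 0.05 on day 7 (0.19 ± 0.09, adjusted p = 0.811), beside 6.14% of all 15661, and 0% of all passed the adjusted threshold. Hif1a (0.17 ± 0.08) and Slc16a3 (−0.17 ± 0.10) followed. Of the 32 summed genes, 24 were higher and 8 lower on day 7 with a median of 0.03, or 75% higher, beside 46.1% and a median of −0.01 for all.

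**Figure D5:**
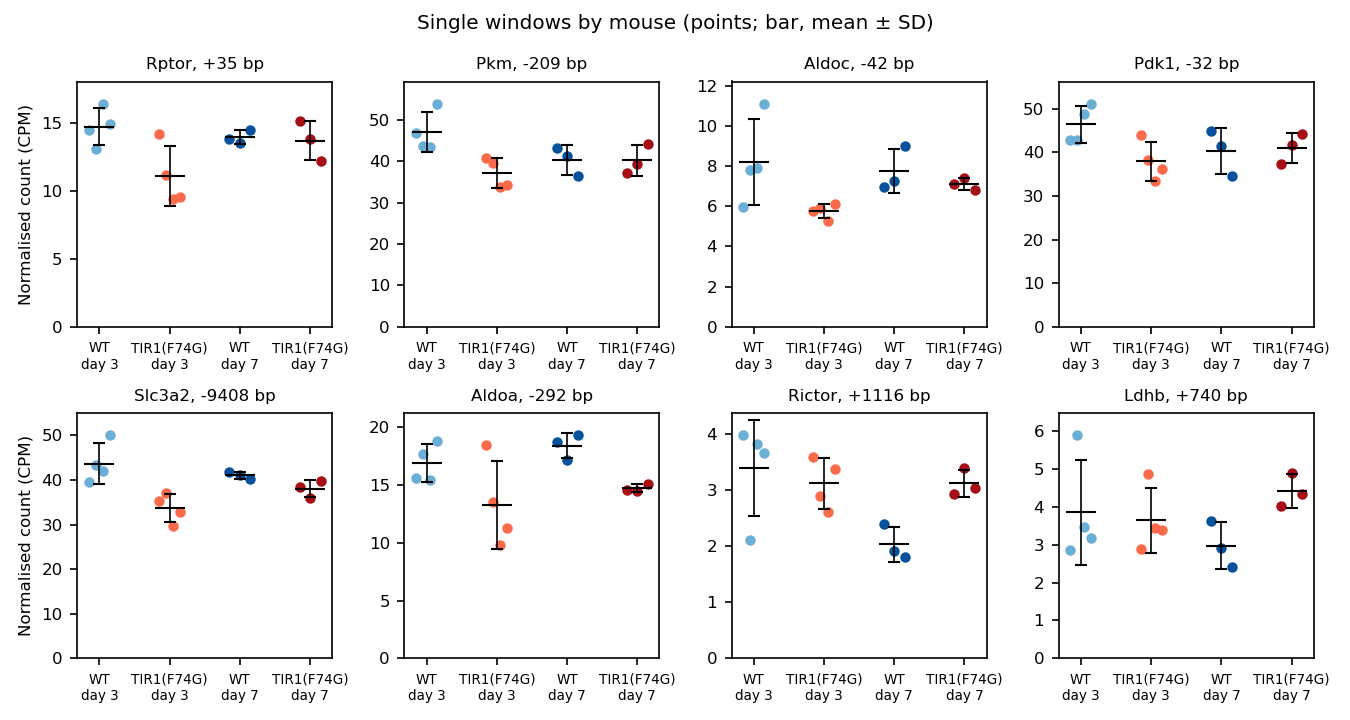
Normalised count (CPM) of 8 single windows in each mouse, by genotype and day, with the distance from the start site in each title; points are mice and bars mean ± SD. The upper row and Slc3a2 separate or nearly separate the genotypes on day 3 (Pkm 43.5 to 53.9 against 33.9 to 40.8 CPM), and Aldoa, Rictor and Ldhb on day 7 (Aldoa 17.2 to 19.3 against 14.5 to 15.1 CPM).

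Taking both days in one fit with day as a term, 30 of the 523 windows had an unadjusted p under 0.05, 12 higher and 18 lower, or 5.74%, beside 6.73% of all windows. None passed an adjusted p of 0.05, which 0.0112% of all did, and DESeq2 also called none of the 523. The smallest p belonged to the Aldoa window 292 bp upstream (−0.35 ± 0.10, unadjusted p = 0.000841, adjusted p = 0.39), and the upstream Slc3a2 window had −0.26 ± 0.08 (unadjusted p = 0.00246). Of the promoter windows, 27 were lower with a median of −0.09 (all −0.07), and 5 had an unadjusted p under 0.05, all lower (10.9% of all promoter windows): Slc16a3 (−0.34 ± 0.12), Aldoc (−0.33 ± 0.12), Rptor (−0.25 ± 0.10), Pkm (−0.20 ± 0.09) and Aldoa (−0.20 ± 0.09). With loess offsets 19 of the 32 were lower. Among summed genes 5 of 32 had an unadjusted p under 0.05, all lower, beside 13.3% of all 15684, and none passed the adjusted threshold (0.0128% of all did). The smallest p-values were at Aldoa (−0.22 ± 0.08, adjusted p = 0.232), Slc16a3 (−0.18 ± 0.07) and Rptor (−0.20 ± 0.09).

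Whether the genotype difference differed between days was tested as an interaction. A positive value means a higher log2 fold change on day 7 than on day 3. Of the 523 windows, 33 had an unadjusted p under 0.05, 31 higher and 2 lower, or 6.31%, beside 6.32% of all windows (2.75% of all were higher at this level). Adjusted p was under 0.05 for 0 of the 523 by edgeR and by DESeq2, and for 0% of all windows. The median over the 32 promoter windows was 0.21 (28 higher), beside 0.10 for all promoter windows. With loess offsets the split was 18 higher and 14 lower. The largest of the 32 was at Slc3a2 (0.55 ± 0.19, unadjusted p = 0.00442, adjusted p = 0.674), with day 7 values of 15.1, 17.7 and 13.9 CPM in R26WT and 18.2, 18.4 and 17.6 CPM in R26TIR1(F74G) mice. The order of the genotypes there was opposite on the 2 days, and the groups overlapped on day 7. Rptor (0.42 ± 0.20), Slc2a1 (0.42 ± 0.18) and Pkm (0.33 ± 0.17) were the other promoter windows with an unadjusted p under 0.05 (6.51% of all promoter windows). Days 3 and 7 share no mice, and across the 32 promoter windows the log2 fold changes of the 2 days had a Pearson r of 0.19, across genes that are not independent; 16 were lower on both days and 13 lower on day 3 and higher on day 7.

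Between days within a genotype, no window and no summed gene of the set passed the adjusted threshold by edgeR or DESeq2. In R26WT mice, 25 of 516 windows had an unadjusted p under 0.05 (4.84%, beside 5.25% of all), with 0 of the 516 and 0.003% of all windows past the adjusted threshold. Promoter windows had a median log2 fold change of day 7 over day 3 of −0.09, with 25 of 32 lower, beside −0.04 and 61.9% lower for all promoter windows. It was −0.05, with 19 lower, both with the replicate block and with the name prefix in the fit. Among R26WT mice, mouse 4 of day 3 alone had replicate number 4 and alone had the prefix E. Both terms therefore take this mouse out of the day estimate and are not separate checks. Without it the median was also −0.05, with 20 lower. Ldha (−0.29 ± 0.15) and Slc16a1 (−0.29 ± 0.14) had an unadjusted p under 0.05 (3.48% of all promoter windows), and neither did with either term. Of the summed genes Ldha (−0.19) and Hk1 (−0.19) did, beside 4.01% of all 15645, and 0% of all passed the adjusted threshold. In R26TIR1(F74G) mice, 21 of 520 windows had an unadjusted p under 0.05 (4.04%, beside 6.96% of all), and 0% of all windows passed the adjusted threshold. Promoter windows had a median of 0.12 (all 0.06), with Rptor (0.34 ± 0.14), Tpi1 (0.31 ± 0.15) and Slc3a2 (0.27 ± 0.12) higher and Pfkp (−0.24 ± 0.11) lower at an unadjusted p under 0.05 (8.09% of all promoter windows). At this level 0 were higher and 0 lower with the replicate block. With the name prefix 0 were higher and 1 lower, and with loess offsets 0 were higher and 3 lower. Of the summed genes 4 of 32 were higher at this level, Tpi1 (0.29), Slc2a1 (0.16), Rptor (0.28) and Aldoc (0.35), beside 10.7% of all 15677, and 0% passed the adjusted threshold. Day of treatment and time of collection cannot be told apart in these values, which share mice with the genotype comparisons.

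The other genes of these pathways, 79 with a summed value and 77 with a promoter window, were read the same way. On day 3, 64 of the 77 promoter windows were lower with a median of −0.15, and 12 had an unadjusted p under 0.05, all lower, or 15.6%, beside 13% of all promoter windows. Of the 79 summed genes, 20 were lower and 1 higher at an unadjusted p under 0.05, beside 13.8% of all summed genes lower. The higher one, Slc7a11, was the only one of the 79 past an adjusted p of 0.05 in any of the 5 comparisons of summed genes. It encodes the light chain that imports cystine in exchange for glutamate, and its heavy chain is Slc3a2. Its 7 summed windows had 15, 19.2, 18 and 15.6 CPM in R26WT and 25.2, 24.5, 23.1 and 25.2 CPM in R26TIR1(F74G) mice on day 3. Every R26TIR1(F74G) mouse lay above every R26WT mouse, with a log2 fold change of 0.52 ± 0.12 (unadjusted p = 3.43e-05, adjusted p = 0.0351). The 7 windows were weak, with means over all R26WT mice of 1.76 to 3.95 CPM. On day 7 the values were 17.5, 22.0 and 13.6 CPM in R26WT and 18.2, 20.4 and 15.6 CPM in R26TIR1(F74G) mice (−0.01 ± 0.14, adjusted p = 0.995). The difference between days was not tested for summed genes. The call was kept by DESeq2 (adjusted p = 0.0111) and lost with windows within 100 kb (0.36, adjusted p = 0.0825), without R26WT mouse 1 (0.181), mouse 3 (0.101) or mouse 4 (0.24) and without R26TIR1(F74G) mouse 4 (0.0866). No single Slc7a11 window passed an adjusted p of 0.05 on day 3.

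Of the other pathway genes, the smallest day 3 p-values after Slc7a11 were at Rps6kb1, a kinase that mTOR complex 1 activates (−0.32 ± 0.10, adjusted p = 0.125), and Sesn2, a leucine sensor upstream of mTOR (−0.28 ± 0.10, adjusted p = 0.146). On day 7 they were at Lamtor5 (0.32 ± 0.10), Tbc1d7 (−0.26 ± 0.09) and Pklr (−0.71 ± 0.31), with adjusted p-values of 0.72 to 0.8. Pklr rests on 1 weak window with a mean count of 30.6. Its day 7 values were 2.52, 2.27 and 4.05 CPM in R26WT and 1.98, 1.73 and 1.42 CPM in R26TIR1(F74G) mice. The highest was in R26WT mouse 3, the library with the fewest counts on day 7. Lamtor5 belongs to the complex that holds mTOR complex 1 at the lysosome, and its day 7 values were 24.7, 24.5 and 25.5 CPM in R26WT and 31.6, 30.7 and 30.9 CPM in R26TIR1(F74G) mice. Tbc1d7 is the partner of Tsc1 and Tsc2. It had 109, 103 and 121 CPM in R26WT and 85.7, 93.8 and 98.7 CPM in R26TIR1(F74G) mice on day 7. At Lamtor5, Tbc1d7 and Pklr the genotypes did not overlap on day 7. These genes were picked for their small p-values, which favours groups without overlap. The share of all summed genes without overlap was not counted, so nothing is drawn from it. Over both days the smallest p-values were at Pfkfb4 (−0.26 ± 0.08, adjusted p = 0.178), a relative of Pfkfb3, at Slc7a11 (0.29 ± 0.10) and at Tbc1d7 (−0.17 ± 0.06).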

How the data were processed

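ATAC-seq libraries of Treg cells from 14 mice were analysed. The authors deposited raw read counts per window and library. According to the methods and the submitters' processing notes, reads were aligned with Bowtie2 to mm10, peaks were called with MACS2, reproducible peaks were merged into 1 atlas, and reads were counted at peak summits with featureCounts. Treatment of duplicates and of the transposase offset is not given in the sources used here, and either could shift counts of single windows. The deposited counts were not pooled or normalised.

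Each window went to the protein-coding gene with the closest start site, up to 50 kb away. Start sites came from the RefSeq GRCm38.p6 promoter table, which held a sequence for 28 of the 32 genes. Genes absent from it, among them Slc2a3, Myc, Slc7a5 and Slc1a5, were placed by the gene end, or by both ends where no strand was known. The genes and lists were chosen with earlier results of these data known. Windows or summed genes whose counts averaged 10 or more over the libraries compared were tested with edgeR's quasi-likelihood test (edgeR 4.0.16, limma 3.58.1, R 4.3.3) after TMM scaling, with Benjamini-Hochberg adjustment over all features tested and a threshold of 0.05. All p-values are two-sided. Each day was fitted by genotype. Both days together, with day as a term, and the interaction were fitted from all 14 libraries. The days within a genotype were fitted from the 7 libraries of that genotype. Scripts were tested on simulated data. Alternatives were DESeq2 1.42.0, its size factors in edgeR, total counts, loess offsets, count minimums (none, 50), a threshold of 0.1, distances of 10 and 100 kb, a replicate block, the mouse name prefix as a term and each mouse left out. Assignment by the outer gene end, and the counts of promoter windows under every setting, were added after the data were seen.

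The promoter windows of the 32 genes were named, together with every window or summed gene past the threshold, up to 3 windows in each direction per genotype comparison with an unadjusted p under 0.05, a mean count of at least 30 and groups that did not overlap, and the 3 summed genes with the smallest p per comparison. Other windows in the text, at additional start sites or far from the promoter, were chosen after their values were seen. Replicate pairs differed by more than sampling noise in all 18 pairs (chi-square per window 1.85 to 2.96).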

Additional observations from a re-analysis of the deposited data

Results flagged for a closer look

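In 3 sets of 4 mice, 1 mouse stood apart from the others by Dixon's test. There were 90 such sets, and chance flags about 1 in 20, or 4.5 of them. At the Pfkp promoter window on day 3, R26TIR1(F74G) mouse 1 had 53.8 CPM and the other R26TIR1(F74G) mice 40.7 to 42.1 CPM. At the Gapdh promoter window on day 3, R26WT mouse 4 had 40.8 CPM and the other controls 32.7 to 33.5 CPM. At the Pdk1 window 6779 bp upstream on day 3, R26WT mouse 2 had 3.77 CPM and the other controls 3.29 to 3.35 CPM. Of 43 tests of whether a named window's genotype difference differed between days, the smallest adjusted p from edgeR was 0.674.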

How the results depend on the processing

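The number of genes or windows past the threshold was 0 in all 11 counts, and 219 of 220 alternative values were also 0. With each mouse left out, the number of summed genes past the threshold on day 3 ran from 0 to 1. The 1 was Aldoa without R26TIR1(F74G) mouse 1 (adjusted p = 0.0476). With the replicate number as a block, 0 passed in every comparison. Same-numbered mice of the 2 genotypes did not deviate together (r of −0.08 to 0.07 over 66750 windows, 0 of 7 pairs over 0.1), and 2 of 7 correlated best with their own number, so the numbers were not taken as pairs. Of 1978 alternative log2 fold changes of the 43 named windows, 132 had another sign than the reported value. All of these belonged to values of at most 0.09 in size, and 0 had an adjusted p under 0.05 (smallest 0.0634). On day 3 the loess offsets turned 8 and total counts 6. The cause was not tested. Assignment by the outer gene end gave 503 windows, 498 of them shared, and distances of 10 and 100 kb gave 286 and 570. Depth limits the weak windows, since 235 of the 523 had a mean count of at least 50.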
